A study of Homo sapiens with 8 samples.

Results

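MALAT1 and NEAT1 are a pair of nuclear long noncoding RNAs, and both were measured among the 13771 genes of a table of log2 CPM (read counts scaled to library size, on a log2 scale) from breast epithelial cells. They were found by their symbols, with no use of their values, so that 2 of the 13771 genes are described here. MALAT1 is a transcript of nuclear speckles, the bodies that store splicing factors, and NEAT1 is the RNA scaffold around which paraspeckles assemble. Both RNAs are known from many epithelial and tumor cells. Neither MALAT1 nor the long NEAT1 isoform ends in an ordinary poly(A) tail: RNase P cuts a tRNA-like structure off their 3′ ends, and the new end is protected by a triple helix formed from U-rich and A-rich stretches. A short NEAT1 isoform, which shares the 5′ end of the long one, is polyadenylated, and a value for the whole gene cannot separate the isoforms.

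The RNA came from 2 cell lines, each stably transduced with a lentiviral pCDH vector and kept under puromycin selection. MCF10A is a non-tumorigenic line of basal-like breast epithelium, and DCIS.COM is a related line that forms lesions resembling ductal carcinoma in situ (DCIS). In each line the pCDH-HOTAIR cells carried the full-length cDNA of the long noncoding RNA HOTAIR, and the pCDH-empty cells carried the vector without insert, with 2 libraries for each of the 4 groups. All 8 libraries therefore came from transduced, puromycin-selected cells, and no untransduced cells were compared. MCF10A was grown with epidermal growth factor, hydrocortisone, insulin and cholera toxin and DCIS.COM without them, so that line and medium cannot be told apart. The labels do not say whether the 2 libraries of a group came from separate cultures, and p-values cover no spread beyond that between libraries. In the limma fits, the SD of each gene was also drawn toward that of genes of similar level.

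Recovered depth ran from 19306864 to 34884841 reads per library. HOTAIR followed the vector labels in all 8 libraries, at 0.60 to 2.40 log2 CPM with pCDH-empty and 7.57 to 7.92 log2 CPM with pCDH-HOTAIR. All 10 basal breast epithelium markers were measured, with a summed level of 4900 to 18053 CPM. Of 12 markers of immune, endothelial, stromal, blood and liver cells, 2 (CD14 and PECAM1) were measured, with a summed level of 11.4 to 26.4 CPM.

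Both genes lie on the plus strand of chromosome 11, 52.1 kb apart, with NEAT1 at chr11:65190245-65213011 and MALAT1 at chr11:65265111-65275544 on GRCh37 (hg19). The union of the annotated exons was 22767 nt with 44.1% GC for NEAT1 and 10434 nt with 42.0% GC for MALAT1. The 3′ ends at which the mature RNAs are formed are shown because they set these RNAs apart from ordinary mRNAs. Capitals mark runs of at least 6 bases that both sequences hold in the same order, on the plus strand of GRCh37, chr11:65273491-65273587 for MALAT1 and chr11:65212910-65213011 for NEAT1.
MALAT1: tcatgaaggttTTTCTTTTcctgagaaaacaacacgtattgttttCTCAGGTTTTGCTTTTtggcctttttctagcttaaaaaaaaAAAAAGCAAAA
NEAT1: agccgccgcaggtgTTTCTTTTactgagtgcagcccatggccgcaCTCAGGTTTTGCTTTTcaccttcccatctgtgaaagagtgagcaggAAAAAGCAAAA
There were 3 such runs, of 8, 16 and 11 bases. The first run is a U-rich stretch, the second run ends in the other U-rich stretch, and the third lies in the A-rich stretch. These stretches are the elements known to pair in the triple helix. The 16-base run occurred once in each gene. The annotated NEAT1 gene stopped at the last base shown, whereas the annotated MALAT1 gene ran on for another 1957 bases.

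MALAT1 was an abundant transcript in every library, and NEAT1 was not. By CPM, MALAT1 ranked between position 55 and position 176 of the 13771 genes, and took 0.0577% to 0.114% of the reads. NEAT1 ranked between position 3494 and position 8315, and took 0.00117% to 0.00533% of the reads. Per kilobase of exon, MALAT1 stood at 56.1 to 107 CPM per kb and NEAT1 at 0.551 to 2.30 CPM per kb, a ratio of 44.1 to 115 within a library. The exon length of NEAT1 includes the whole long isoform, which spreads reads of the short isoform over more bases. TALAM1, an antisense transcript of MALAT1, was not analysed here, and without a stated strand setting reads from it cannot be told apart from those of MALAT1.

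In MCF10A, MALAT1 was at 9.46 and 9.19 log2 CPM in the pCDH-empty libraries and at 9.94 and 10.06 log2 CPM in the pCDH-HOTAIR libraries. In DCIS.COM, it was at 9.37 and 9.87 log2 CPM with pCDH-empty and at 10.13 and 9.69 log2 CPM with pCDH-HOTAIR. The vector groups did not overlap in MCF10A, with both HOTAIR libraries above both controls. With 2 libraries a group, such a separation cannot go below p = 0.333 by an exact permutation test. The share of all genes that separate in this way is not given here. The vector groups overlapped in DCIS.COM, where the second empty-vector library was above the second HOTAIR library. The reads behind these values ran from 15577 to 39820 per library. In bulk RNA, fewer expressing cells and less RNA per cell cannot be told apart.

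NEAT1 was at 5.13 and 4.26 log2 CPM in MCF10A pCDH-empty and at 5.58 and 5.61 log2 CPM in MCF10A pCDH-HOTAIR. In DCIS.COM, it was at 3.66 and 5.25 log2 CPM with pCDH-empty and at 5.71 and 5.23 log2 CPM with pCDH-HOTAIR. As for MALAT1, the vector groups were separate in MCF10A and overlapped in DCIS.COM, there by the second library of each vector. For NEAT1 these second libraries were nearly tied, at 5.247 and 5.231. With a correction for gene length they were at 5.14 with pCDH-empty and 5.20 with pCDH-HOTAIR, and the groups did not overlap. The NEAT1 separations likewise cannot go below p = 0.333 by an exact permutation test. The first DCIS.COM empty-vector library was the lowest of the 8 for NEAT1 with 377 reads (95% exact Poisson interval 340 to 417, counting error only), and the second held 1016 (954 to 1080).

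**Figure D1:**
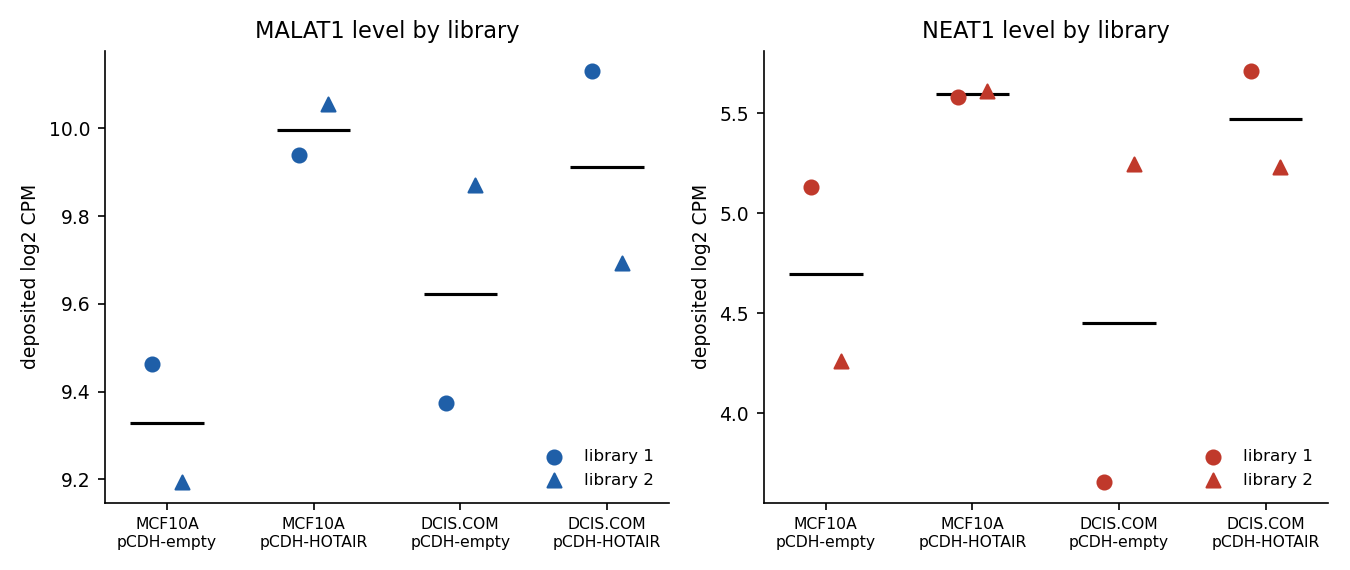
Deposited log2 CPM of MALAT1 (left) and NEAT1 (right) in each of the 8 libraries, with circles for library 1, triangles for library 2 and a bar for the mean of each group. The HOTAIR libraries lie above both controls in MCF10A for each RNA, and the DCIS.COM groups overlap, with NEAT1 at 3.66 in 1 control library. With 2 libraries a group, the separation in MCF10A cannot go below p = 0.333 by an exact permutation test.

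By group mean, MCF10A pCDH-HOTAIR was the highest of the 4 groups and DCIS.COM pCDH-HOTAIR the next for both RNAs. MALAT1 was at 10.00 ± 0.08 log2 CPM (SD, n = 2) in MCF10A pCDH-HOTAIR, 9.91 ± 0.31 in DCIS.COM pCDH-HOTAIR, 9.62 ± 0.35 in DCIS.COM pCDH-empty and 9.33 ± 0.19 in MCF10A pCDH-empty. Each neighbouring pair in this order had overlapping libraries. NEAT1 was at 5.59 ± 0.02 log2 CPM (SD, n = 2) in MCF10A pCDH-HOTAIR, 5.47 ± 0.34 in DCIS.COM pCDH-HOTAIR, 4.69 ± 0.61 in MCF10A pCDH-empty and 4.45 ± 1.12 in DCIS.COM pCDH-empty. Here DCIS.COM pCDH-HOTAIR and MCF10A pCDH-empty did not overlap, and the other neighbors did.

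The replicate libraries differed from 1.02-fold to 3.02-fold, depending on the RNA and the group. NEAT1 differed 3.02-fold between the DCIS.COM pCDH-empty libraries and 1.83-fold between the MCF10A pCDH-empty libraries, against 1.39-fold and 1.02-fold between the HOTAIR libraries of the same lines. MALAT1 differed 1.41-fold between the DCIS.COM pCDH-empty libraries and 1.21-fold between those of MCF10A, against 1.35-fold and 1.09-fold between the HOTAIR libraries of the same lines. Pooled over the 4 groups, the SD between libraries was 0.66 log2 units for NEAT1 and 0.26 for MALAT1. Of 4841 genes with a mean within 1 log2 unit of NEAT1, 1 had a larger SD, and their median SD was 0.093. Of 220 genes within 1 log2 unit of MALAT1, 2 had a larger SD, and their median SD was 0.077.

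**Figure D2:**
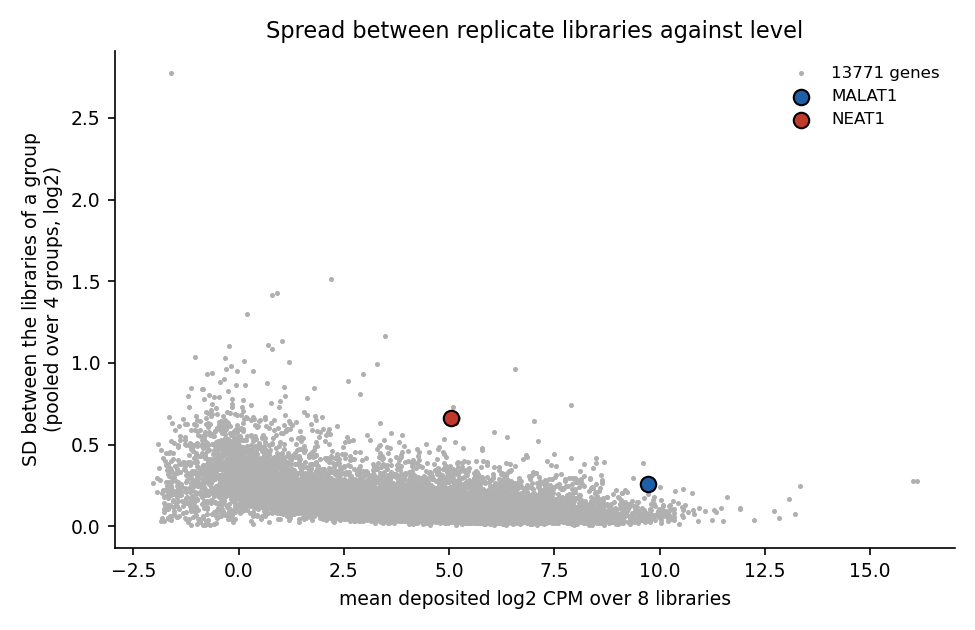
SD between the 2 libraries of a group, pooled over the 4 groups (log2 units), against the mean deposited log2 CPM over 8 libraries, with 1 grey point for each of the 13771 genes. NEAT1 (red, SD 0.66) and MALAT1 (blue, SD 0.26) lie at the upper edge of the genes of their level.

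The first question was whether either RNA differed between cells with HOTAIR and cells with the empty vector. In MCF10A, MALAT1 was 1.59-fold higher with HOTAIR, a log2 fold change of 0.67 (SE 0.19, 95% interval 0.22 to 1.11) and an adjusted p = 0.434 over all genes. Its own SD between libraries was 0.26, which limma drew toward those of other genes, and this narrowed the interval. NEAT1 was 1.87-fold higher (95% interval 0.868-fold to 4.01-fold), a log2 fold change of 0.90 (SE 0.48) with an adjusted p = 0.785. A gene was called where its adjusted p was below 0.05 and its change at least 1.5-fold. This rule called 0.0218% of all genes (3 genes) and neither of the RNAs. The authors, using edgeR with an FDR of 0.05 and a 1.5-fold change, listed MALAT1 among the genes higher with HOTAIR in MCF10A. Their test called more genes than the rule used here, and why the calls differ was not tested. In the ranking of all genes by log2 fold change in MCF10A, NEAT1 was at position 67 and MALAT1 at position 170. Leaving out 1 library at a time kept MALAT1 between 0.53 and 0.80 and NEAT1 between 0.47 and 1.33, the lowest NEAT1 value being that without the second empty-vector library.

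In DCIS.COM, the log2 fold change with HOTAIR was 0.29 for MALAT1 (SE 0.19, 95% interval -0.16 to 0.73, adjusted p = 0.418). It was 1.02 for NEAT1, or 2.03-fold (SE 0.48, 95% interval -0.09 to 2.12, adjusted p = 0.305), at position 64 of all genes by log2 fold change. Neither was called by the rule, which called 0.0871% of all genes in this line (12 genes). The NEAT1 value rested on the empty-vector libraries. It was 0.22 (adjusted p = 0.788) without the first of them, and 1.81 and called (adjusted p = 0.00218) without the second, in a fit that called 10.2% of all genes (1403 genes). MALAT1 moved to 0.04 and 0.54 in the same fits (adjusted p = 0.948 and 0.0314), the last being under the 1.5-fold threshold.

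The second question was whether the response to HOTAIR differed between the lines. The interaction, as the DCIS.COM minus the MCF10A log2 fold change, was -0.38 for MALAT1 (SE 0.27, 95% interval -1.01 to 0.25, adjusted p = 0.553). It was 0.12 for NEAT1 (SE 0.67, 95% interval -1.44 to 1.68, adjusted p = 0.939). Neither was called, where 0.0436% of all genes were (6 genes), and the intervals are wide enough to hold differences in either direction. The NEAT1 interaction changed sign to -0.68 without the first DCIS.COM empty-vector library, to -0.32 without the first MCF10A empty-vector library and to -0.12 without the first DCIS.COM HOTAIR library. That of MALAT1 ran from -0.63 without the first DCIS.COM empty-vector library to -0.13 without the second.

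The third question was whether the lines themselves differed. With the empty vector, the DCIS.COM over MCF10A log2 fold change was 0.29 for MALAT1 (SE 0.19, 95% interval -0.15 to 0.74, adjusted p = 0.205) and -0.24 for NEAT1 (SE 0.48, 95% interval -1.35 to 0.86, adjusted p = 0.666). With the HOTAIR vector it was -0.09 for MALAT1 (95% interval -0.53 to 0.36, adjusted p = 0.711) and -0.12 for NEAT1 (95% interval -1.23 to 0.98, adjusted p = 0.835). The same rule called 46.3% of all genes with the empty vector and 43.7% with the HOTAIR vector, and called neither RNA. For MALAT1 the intervals leave room for differences of up to 1.67-fold with the empty vector and 1.28-fold with the HOTAIR vector, on the side of higher values in DCIS.COM. The empty-vector value of NEAT1 was 0.55 without the first DCIS.COM library, 0.19 without the first MCF10A library, and -1.04 and called (adjusted p = 0.0129) without the second DCIS.COM library, in a fit that called 50.4% of all genes. That of MALAT1 was 0.54 (adjusted p = 0.0158, under 1.5-fold) without the first DCIS.COM library and 0.05 without the second. Without the second DCIS.COM HOTAIR library, the HOTAIR-vector values were 0.13 for MALAT1 and 0.12 for NEAT1.

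**Figure D3:**
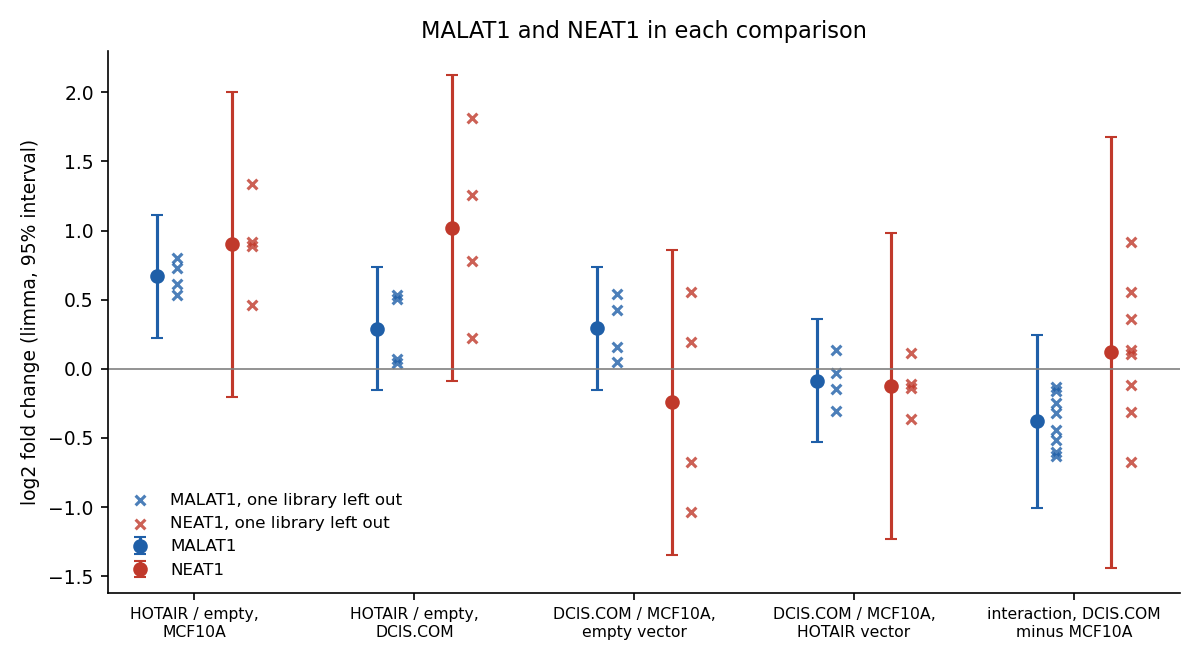
Log2 fold change of MALAT1 (blue) and NEAT1 (red) in the 5 comparisons, as limma estimates with their 95% intervals (filled circles and bars), and as estimates with each library in turn left out (crosses). All intervals but that of MALAT1 in MCF10A (0.22 to 1.11) include 0, and the NEAT1 crosses spread from 0.22 to 1.81 for HOTAIR in DCIS.COM. The intervals rest on SDs that limma drew toward those of other genes, which narrowed them for both RNAs.

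Within each line, the libraries fell in the same order for both RNAs in the deposited values. In MCF10A the order from the highest was the second HOTAIR library, the first HOTAIR library, the first empty-vector library and the second empty-vector library. In DCIS.COM it was the first HOTAIR library, the second empty-vector library, the second HOTAIR library and the first empty-vector library. There the order of the second libraries was a near tie for NEAT1 (5.247 and 5.231 log2 CPM). It held with the GC correction (5.23 and 5.21) and was reversed with the length correction (5.14 and 5.20). The swings were wider for NEAT1, from -0.88 to 0.46 log2 units around the MCF10A mean and from -1.30 to 0.75 around the DCIS.COM mean, than for MALAT1, from -0.47 to 0.39 and from -0.39 to 0.36. Both RNAs were read from the same libraries, so the shared order is a description.

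The log2 ratio of MALAT1 to NEAT1 within a library was 4.33, 4.93, 4.36 and 4.45 in MCF10A (both empty-vector libraries first) and 5.72, 4.62, 4.42 and 4.46 in DCIS.COM. The ratio was highest in the first DCIS.COM empty-vector library and next highest in the second MCF10A empty-vector library, the libraries in which both RNAs were lowest in their line. Between the lines the mean ratio was 4.81 ± 0.61 in DCIS.COM and 4.52 ± 0.28 in MCF10A (SD, n = 4 libraries each), a difference of 0.29 with p = 0.486 by a two-sided exact permutation test, for which 0.0286 is the smallest p possible. The difference was 0.54 with the empty vector alone and 0.04 with the HOTAIR vector alone, values with no test. Over both vectors it was -0.02 without the first DCIS.COM empty-vector library.

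Several properties of the libraries were set beside the levels. The signal recognition particle RNAs RN7SL1 and RN7SL2 took 18.9% of the reads of the first DCIS.COM empty-vector library, whereas their share was 12.5% to 13.8% in the rest of that line. In MCF10A they took 14.95% and 13.7% with the empty vector and 12.5% and 11.1% with HOTAIR. Genes were split into 5 bins of GC content, and the median of the lowest bin, relative to the line mean, was set against that of the highest. It lay 0.36 log2 units lower in the first DCIS.COM empty-vector library, a difference of -0.36, and 0.12 to 0.13 higher in the other 3. In MCF10A the difference was 0.04 and 0.05 with the empty vector and -0.06 and -0.03 with HOTAIR, so that there the libraries with less of both RNAs had the higher values. With a correction for GC content, the gap between the DCIS.COM empty-vector libraries went from 0.50 to 0.34 log2 units for MALAT1 and from 1.59 to 1.52 for NEAT1. The part of the RN7SL share in the results was not tested beyond totals without these RNAs, which changed no call.

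The genes whose profiles were nearest to MALAT1, by Euclidean distance over the 8 libraries after centring on each line, were GOLGA8B (0.26), GOLGA8A (0.29), MYLK (0.36), CTSF (0.37) and VLDLR (0.37), among 9473 genes with a mean of at least 3 log2 CPM. GOLGA8A and GOLGA8B are near-identical golgin genes whose reads may be shared, MYLK is the myosin light chain kinase, CTSF is the protease cathepsin F and VLDLR is a lipoprotein receptor. GOLGA8B stood -0.18, -0.31, 0.25 and 0.24 log2 units from the MCF10A mean and -0.44, 0.07, 0.33 and 0.04 from the DCIS.COM mean, in the library order used above, beside -0.20, -0.47, 0.28, 0.39, -0.39, 0.10, 0.36 and -0.07 for MALAT1. By this distance NEAT1 had no near neighbor. The 5 nearest genes were HOTAIRM1 (1.04), a noncoding RNA of the HOXA cluster, C4orf3 (1.06), TNNI2 (1.08), FKBP2 (1.08) and ZNF92 (1.08), and MALAT1 came at position 13 (1.17). Seen from MALAT1, NEAT1 came at position 8901 of 9473 at the same distance. The distance grows with the size of the swings, which were wide for NEAT1. These positions therefore do not compare the shapes of the profiles alone.

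Paraspeckle proteins were measured for 38 of 39 list members. SFPQ, NONO and PSPC1 form the dimers that coat NEAT1, and RBM14 and HNRNPK are needed for its assembly into paraspeckles. For HOTAIR, 0 of the 38 were called by limma in either line, and limma-voom called 0 of them as well. The list median was 0.03 log2 units in MCF10A and -0.01 in DCIS.COM, beside -0.01 and 0.01 over all genes. In DCIS.COM, 2 were higher and 4 lower at an unadjusted p under 0.05, which 17.5% of all genes passed in this line. Among them were UBAP2L at -0.29 (adjusted p = 0.200) and RBM14 at -0.40 (adjusted p = 0.222). Of the 38, 19 lay above 0 in DCIS.COM, and 9 did without the first empty-vector library (median -0.05).

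Between the lines with the empty vector, 4 paraspeckle proteins were called higher in DCIS.COM and 2 lower, against 46.3% of all genes called. PSPC1 rose by 0.74, RBM14 by 0.73, UBAP2L by 0.85 and HNRNPUL1 by 0.68 log2 units (adjusted p = 4.6e-05, 0.000627, 2.1e-05 and 1.53e-05). The cold-induced RNA-binding protein RBM3 fell by 1.06 (adjusted p = 9.2e-05). The list median was 0.26 log2 units, and 0.28 without the first DCIS.COM empty-vector library. With the HOTAIR vector, 1 was called higher, the cold-induced CIRBP at 0.64 (adjusted p = 0.000395), and 1 lower, RBM3 at -0.60 (adjusted p = 0.00249). SFPQ (0.42 with the empty and 0.35 with the HOTAIR vector, adjusted p = 0.000725 and 0.00191) was under the 1.5-fold threshold with either vector, and NONO (0.17 and 0.05) and HNRNPK (0.02 and 0.08) were near 0.

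Nuclear speckle proteins, measured for 38 of 38 members, gave 0 calls by limma for HOTAIR in either line, with medians of 0.01 log2 units in both. Unadjusted p-values under 0.05 numbered 0 in MCF10A and 8 in DCIS.COM, against 7.28% and 17.5% of all genes, and limma-voom gave 0 calls here and in each list described next, except the hypoxia-induced genes. The scaffold proteins SRRM2 (0.26 in MCF10A and -0.30 in DCIS.COM) and SON (0.20 and -0.22) had opposite signs in the lines, and the splicing factors SRSF1 (-0.06 and 0.08) and SRSF2 (0.00 and -0.08) were near 0. SRRM2 had an interaction of -0.55 (adjusted p = 0.397). In DCIS.COM 20 speckle proteins lay above 0, and 11 did without the first empty-vector library (median -0.05). With the empty vector 5 of the 38 speckle proteins were called higher in DCIS.COM and 2 lower, against 46.3% of all genes called, including the mRNA export factor ALYREF at 0.93, the kinase CLK2 at 0.63 and the kinase CLK1 at -1.08. The list median between the lines was 0.16 log2 units, and 0.26 without the first DCIS.COM empty-vector library.

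The factors that cut and bind the 3′ ends printed above were measured for 24 of 26 members. For HOTAIR, 0 were called in either line by limma, with 0 at an unadjusted p under 0.05 in MCF10A and 4 in DCIS.COM (all lower), against 7.28% and 17.5% of all genes in either direction. The median was -0.07 log2 units in MCF10A, where 3 of 24 lay above 0, and 0.03 in DCIS.COM, where 13 did. Without the first DCIS.COM empty-vector library the DCIS.COM median was -0.05, with 7 above 0. METTL16, which binds the MALAT1 triple helix, was at -0.18 and -0.19 (adjusted p = 0.739 and 0.292), and ELAC2, the RNase Z that trims the released tRNA-like RNA, at -0.02 and -0.33. RPPH1, the RNA of RNase P, was at -0.18 in MCF10A (adjusted p = 0.800), and the RNase P protein POP1 at -0.26 in DCIS.COM (adjusted p = 0.222). With the empty vector, 2 were called higher in DCIS.COM than in MCF10A and 3 lower, against 46.3% of all genes called. The RNase P protein RPP25 fell by 4.67 and RPP40 by 0.81, whereas POP5 of the same enzyme rose by 0.79. The exosome nuclease EXOSC10 rose by 1.06 and its cofactor RBM7 fell by 0.93. RPP25 had a low mean level of -1.46 log2 CPM, so the size of its fall is uncertain.

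The transcription regulators, 9 of 9 measured, gave 0 calls for HOTAIR by limma (1 at an unadjusted p under 0.05 in MCF10A and 2 in DCIS.COM, against the same shares). EPAS1, or HIF-2α, through which hypoxia is known to induce NEAT1, was at 0.19 in MCF10A (adjusted p = 0.682) and -0.28 in DCIS.COM (adjusted p = 0.222), with HIF1A at 0.15 in MCF10A. The list medians were 0.01 and -0.13. Between the lines 2 of 9 were called lower in DCIS.COM with either vector, against 46.3% and 43.7% of all genes called, EPAS1 at -0.97 and -1.44 and the heat shock factor HSF1 at -0.65 and -0.94. With the empty vector the list median between the lines was -0.259, and -0.305 without the first DCIS.COM empty-vector library.

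Hypoxia-induced genes were measured for 22 of 22 members, with 22 above 0 in MCF10A and 18 above 0 in DCIS.COM. Over all genes, 47.7% and 52% lay above 0. In MCF10A, 2 were called higher with HOTAIR, against 0.0218% of all genes called. In the higher direction 15 had an unadjusted p under 0.05, where 7.28% of all genes had one in either direction. The list median was 0.30 log2 units. By limma-voom 3 were called in MCF10A and 1 in DCIS.COM, against 0.0363% and 0.0871% of all genes. CA9, the carbonic anhydrase of hypoxic cells, rose by 0.97 (SE 0.07, adjusted p = 0.00518) and NDRG1, a stress-responsive gene, by 0.62 (SE 0.06, adjusted p = 0.0412). In DCIS.COM, 1 was called, NDRG1 by 0.61 (adjusted p = 0.0160), against 0.0871% of all genes called. CA9 was at 0.24 (adjusted p = 0.222) in this line, and the list median was 0.27. Replicates of NDRG1 were close, with values of 7.33, 7.36, 7.97 and 7.95 log2 CPM in MCF10A and 5.21, 5.14, 5.82 and 5.76 in DCIS.COM. Without the second MCF10A empty-vector library the list median in MCF10A was 0.295. Without the first DCIS.COM empty-vector library the list median in DCIS.COM was 0.17. Between the lines with the empty vector 11 of the 22 were called lower in DCIS.COM and 1 higher, in a comparison that called 46.3% of all genes and in which NEAT1 was at -0.24 and not called.

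Of the other long noncoding RNAs, 31 of 35 were measured, and 0 were called for HOTAIR in either line by limma (0 at an unadjusted p under 0.05 in MCF10A and 5 in DCIS.COM, against 7.28% and 17.5% of all genes). In MCF10A they ranged from -0.24 to 0.30 log2 units, so that both MALAT1 (0.67) and NEAT1 (0.90) lay above all 31. In DCIS.COM they ranged from -0.42 to 0.64, with NEAT1 (1.02) above all 31 and MALAT1 (0.29) within the range. The SE was 0.48 for NEAT1 and 0.19 for MALAT1 in either line. Without the first DCIS.COM empty-vector library NEAT1 was at 0.22, and without the second MCF10A empty-vector library it was at 0.47 and MALAT1 at 0.53. The ranges of the list without these libraries are not given here. The medians were 0.08 and 0.07. Between the lines with the empty vector 1 was called higher in DCIS.COM (H19 at 5.78) and 3 lower, and with the HOTAIR vector 2 higher and 3 lower, against 46.3% and 43.7% of all genes called. H19 had a low mean level of 0.10 log2 CPM (SE of the difference 0.58), so the size of its difference is uncertain.

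The nuclear-retained mRNAs, a list of transcripts known to be held in the nucleus in part by retained introns, were measured for 29 of 30 members. Not all members are coding. By limma 0 were called for HOTAIR, and the medians were 0.07 log2 units in MCF10A and 0.18 in DCIS.COM, beside -0.01 and 0.01 over all genes. Unadjusted p-values under 0.05 numbered 3 in MCF10A and 7 in DCIS.COM, all higher, where 7.28% and 17.5% of all genes had one in either direction. GOLGA8A was at 0.51 and 0.44, GOLGA8B at 0.49 and 0.37, and the readthrough transcript CHKB-CPT1B at 0.46 and 0.27. Without the first DCIS.COM empty-vector library the DCIS.COM median was -0.01. Without the second MCF10A empty-vector library the MCF10A median was 0.04. In DCIS.COM the list thus moved with the same libraries as both RNAs, with medians of -0.20 in the first empty-vector library and 0.14 in the first HOTAIR library. The other long noncoding RNAs (-0.13 and 0.08) and the hypoxia-induced genes (-0.16 and 0.14) did so too. The transcription regulators (0.13 and -0.04) and the 11q13.1 genes (0.13 and -0.09) went the other way. In MCF10A the medians of the nuclear-retained list ran only from -0.04 to 0.03. The part of this list in the values of MALAT1 and NEAT1 was not tested. Between the lines with the empty vector 4 were called higher in DCIS.COM and 2 lower, against 46.3% of all genes called. The list median between the lines was 0.18, and 0.29 without the first DCIS.COM empty-vector library.

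**Figure D4:**
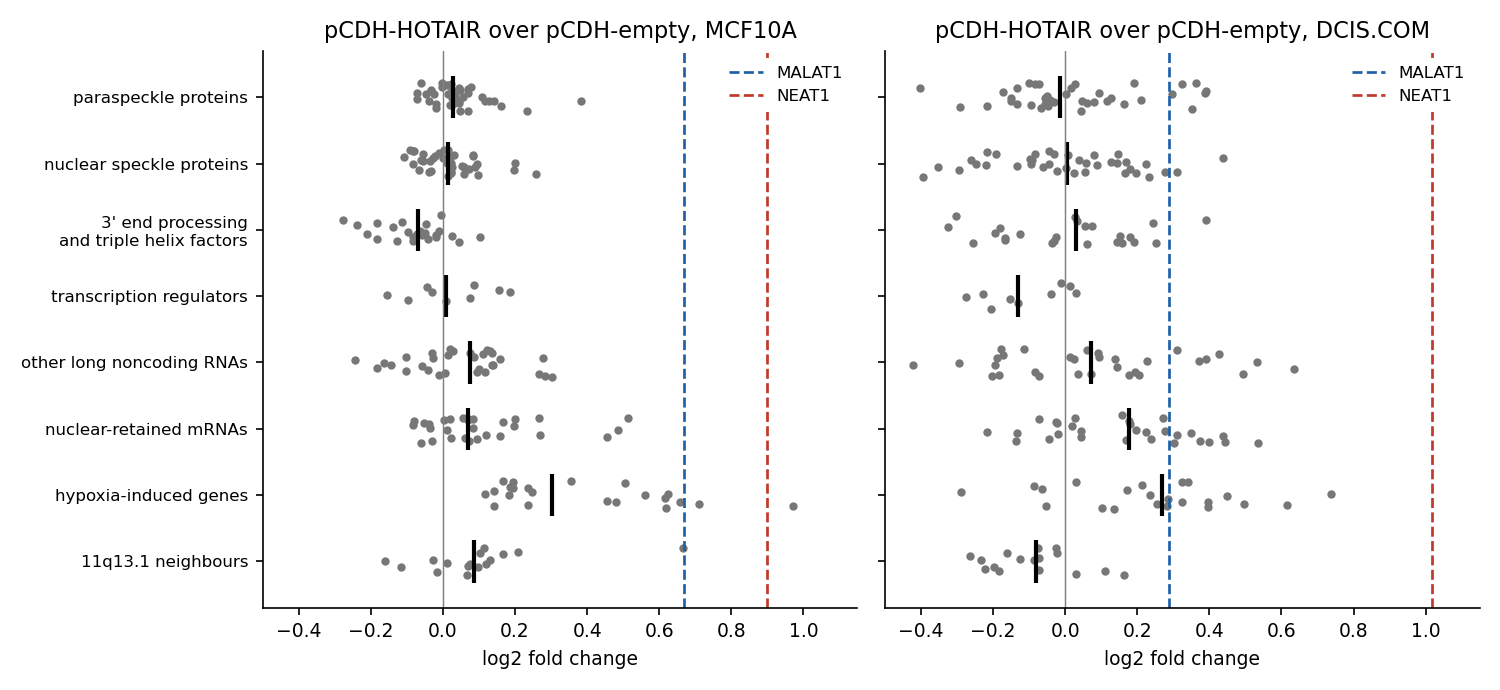
Log2 fold change of pCDH-HOTAIR over pCDH-empty for each measured gene of 8 lists (grey points, with a black bar for the list median) in MCF10A (left) and DCIS.COM (right), with dashed lines at the values of MALAT1 and NEAT1. In MCF10A the noncoding RNAs reach 0.30 and the hypoxia-induced genes have a median of 0.30. MALAT1 is at 0.67 (SE 0.19) and NEAT1 at 0.90 (SE 0.48).

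Genes around the locus lay nearer to 0. Within 200 kb of either gene 14 others were measured, and 0 were called for HOTAIR in either line by limma (2 at an unadjusted p under 0.05 in MCF10A and 1 in DCIS.COM, against 7.28% and 17.5% of all genes). Their medians were 0.10 log2 units in MCF10A and -0.11 in DCIS.COM, where 11 and 2 of the 14 lay above 0. In the wider list of 22 genes of 11q13.1, of which 16 were measured, 3 lay above 0 in DCIS.COM (median -0.08), and 9 did without the first empty-vector library (median 0.01). FRMD8, the nearest measured gene upstream of NEAT1, was at 0.10 in MCF10A and -0.03 in DCIS.COM. In MCF10A the highest was SLC25A45, a mitochondrial carrier of low level, at 0.67 (SE 0.24, adjusted p = 0.580). With the empty vector 4 neighbors were called higher in DCIS.COM and 4 lower, against 46.3% of all genes called. In the wider list the counts were also 4 and 4, and 0 were called for HOTAIR in either line.

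Of the cell type markers, 0 were called for HOTAIR in either line by limma, against 0.0218% of all genes in MCF10A and 0.0871% in DCIS.COM. In MCF10A 1 of 10 basal and 1 of 2 other markers had an unadjusted p under 0.05, against 7.28% of all genes. In DCIS.COM 3 of 10 basal markers did, against 17.5% of all genes. Between the lines with the empty vector, 7 of 10 basal markers were called lower in DCIS.COM and 2 higher, against 46.3% of all genes called, and CD14 was at -4.48 and PECAM1 at 2.32, so that the lines differed in these markers where neither MALAT1 nor NEAT1 was called.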

How the data were processed

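Total RNA with an integrity number over 8 was made into ScriptSeq v2 libraries and sequenced as paired ends. The authors mapped the reads to hg19 with Rsubread, counted them on UCSC known genes with featureCounts, added symbols from org.Hs.eg.db, and deposited log2 CPM values normalized with edgeR. The strand setting of the counting and any depletion of ribosomal RNA are not given in the sources used here. The deposited log2 values were used as they are. Whole reads were recovered from their steps, with 100% of the values within 0.1 read of a whole number.

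The 4 group means were fitted to all 13771 genes with limma 3.58.1 in R 4.3.3 (eBayes with a mean-variance trend), and p-values were adjusted by the Benjamini-Hochberg method over all genes. The eBayes step draws the SD of each gene toward that of genes of similar level. In comparisons of 2 groups the SE was 0.19 for MALAT1 and 0.48 for NEAT1, below their own SD of 0.26 and 0.66. A gene was called at an adjusted p under 0.05 and, except for the interaction, a fold change of at least 1.5. "Rose", "fell" and "called" refer to this rule. Exon length and GC content came from GENCODE 44 on GRCh37, for 95.5% of the genes. The ratio of MALAT1 to NEAT1 was compared by an exact permutation test (scipy 1.17.1). With 2 libraries a group, an exact permutation test of 1 gene cannot go below p = 0.333. The fit was tested on simulated data.

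MALAT1, NEAT1 and the gene lists (10 lists, of paraspeckle proteins, nuclear speckle proteins, 3′ end factors, transcription regulators, other noncoding RNAs, nuclear-retained mRNAs, hypoxia-induced genes, 11q13.1 genes, basal and other markers) were chosen with earlier results of these data known. Genes were named from the called genes of each list with the smallest adjusted p, up to 5, or otherwise from the 2 with the smallest p, with core members of speckles and paraspeckles, the nearest profiles and the neighbors within 200 kb. Alternatives covered the pseudocount, scaling, GC content, length, a filter on low values, limma-voom, a replicate block and each library left out. List counts and medians without 1 of the 2 control libraries in which both RNAs were lowest were chosen after seeing the data. Genes with near-identical copies or overlapping partners are uncertain. Some genes of the lists and of the locus are not reported here by name.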

Additional observations from a re-analysis of the deposited data

Results flagged for a closer look

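In DCIS.COM, the log2 ratio of MALAT1 to NEAT1 was 5.72 in the first pCDH-empty library and 4.42 to 4.62 in the other 3 libraries. Its distance from the nearest of them, divided by the range of all 4, exceeded the 95% critical value of Dixon's test for 4 samples. Chance passes that value in about 1 of 20 groups. Both ends were examined in both lines and only this value was flagged, so a flag by chance in either line is likelier than that. The 4 libraries hold both vectors. The same library had 377 NEAT1 reads, the largest RN7SL share (18.9%) and the lowest difference between genes of low and of high GC content (-0.36 log2 units, relative to the line mean).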

How the results depend on the processing

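Across 11 or 12 alternatives for each of the 10 values (2 RNAs in 5 comparisons), other than leaving out a library, 114 of 114 estimates kept their direction and their side of the threshold. With the GC correction the MALAT1 difference between the lines with the empty vector was 0.41 with an adjusted p = 0.0410, under the 1.5-fold threshold. With a replicate block, NEAT1 for HOTAIR was 0.90 in MCF10A and 1.02 in DCIS.COM (adjusted p = 0.857 and 0.326), and MALAT1 0.67 and 0.29 (adjusted p = 0.549 and 0.451), with no call changed. Deviations of same-numbered libraries correlated at 0.07 in MCF10A and -0.01 in DCIS.COM. With 2 pairs in each line, these values cannot show whether same-numbered libraries were prepared together. In the fit with the replicate block 20 genes were called for HOTAIR in DCIS.COM instead of 12, 2 instead of 3 in MCF10A, and 0 instead of 6 for the interaction.

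Leaving out 1 library at a time, 39 of 48 estimates kept direction and call. The NEAT1 ranges were 0.22 to 1.81 for HOTAIR in DCIS.COM (1.81 called, without the second empty-vector library, in a fit that called 10.2% of all genes), -1.04 to 0.55 between the lines with the empty vector (-1.04 called where 50.4% of all genes were, 0.19 without the first MCF10A library), -0.36 to 0.12 with the HOTAIR vector and -0.68 to 0.91 for the interaction (-0.32 and -0.12 also reversed). MALAT1 ran from -0.31 to 0.13 between the lines with the HOTAIR vector, 0.05 to 0.54 with the empty vector and -0.63 to -0.13 for the interaction. The difference in the log2 ratio ran from -0.017 (without the first DCIS.COM empty-vector library) to 0.43. The first DCIS.COM empty-vector library decided the sign of several NEAT1 values, and the cause was not tested. A lone library left in a group was assumed to vary like the other groups. Each RNA had at least 377 reads in a library, so the 2 libraries per group limit the precision more than depth does.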
